A study of Mus musculus with 36 samples.

Results

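The 10 genes described here mark crypt stem cells of the intestinal epithelium or are direct targets of Wnt signalling there: Lgr5, Ascl2, Olfm4, Smoc2, Axin2, Rnf43, Znrf3, Nkd1, Ephb2 and Sox9. They were taken by symbol from a table of 34197 genes, in which all 10 have a row, and all 10 passed the filter on low counts that left 11462 genes for testing. The table holds RNA molecule counts (unique molecular identifiers, UMIs) from 36 samples of mouse duodenal organoids, which are epithelial structures grown in a gel from the crypts of C57BL/6 mice, males or virgin females older than 8 weeks. Every group was cultured with EGF, Noggin and R-Spondin 1, the last of which is the ligand of Lgr5 and amplifies Wnt signalling, and every group was exposed in a microfluidic chip.

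The 4 treatments were DMSO, the solvent, and pulses of DAPT, an inhibitor of the gamma-secretase that releases the active part of Notch receptors, repeated with a period of 90, 130 or 170 min. The labels give DAPT at 1.38 µM for 90 min and at 2 µM for 130 min. For 170 min they name both 2.6 and 2 µM, so period and dose cannot be told apart. Each treatment lasted 24, 48 or 72 h and has 3 replicates at each duration, which makes 12 groups of 3. Organoids were passaged 3, 2 and 1 days before the 24, 48 and 72 h exposures, so all were harvested 4 days after passage, and a longer exposure also started sooner after passage. A sample held 20 to 50 pooled organoids, and nothing in the labels tells if the replicates of a group were grown or taken from mice separately. The p-values therefore measure the spread between these samples. Bulk RNA was measured, so fewer cells of a type and less RNA per cell cannot be told apart.

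Crypt base stem cells divide continuously and are kept in that state by Wnt ligands, which in the duodenum come partly from neighbouring Paneth cells. Lgr5 is a receptor for R-spondins: when it is engaged, the ubiquitin ligases Rnf43 and Znrf3, which otherwise remove Wnt receptors from the cell surface, are cleared. Stabilised beta-catenin then enters the nucleus, joins TCF factors there and switches on targets that include Lgr5, Ascl2 and the feedback inhibitors Axin2, Rnf43, Znrf3 and Nkd1. Notch signalling acts in the same cells, holding them out of the secretory lineages, and Olfm4 is known as a gene that responds to it.

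The start regions of these genes differ in sequence. Olfm4 and Axin2 are shown because their levels correlated over the 36 libraries (r = 0.69), as described further on. Without replicate 2 of every group r was 0.14. RefSeq (mouse build GRCm38.p6) gave 7 promoters for 6 of the genes, Ascl2, Olfm4, Axin2, Rnf43 with a pair of starts, Nkd1 and Ephb2. The 250 bases before the start are given here 5′ to 3′ on the strand of the gene, at chr14:80000052-80000301 on the plus strand for Olfm4 and at chr11:108920099-108920348 on the plus strand for Axin2. Capitals mark the letters TATAA.
Olfm4: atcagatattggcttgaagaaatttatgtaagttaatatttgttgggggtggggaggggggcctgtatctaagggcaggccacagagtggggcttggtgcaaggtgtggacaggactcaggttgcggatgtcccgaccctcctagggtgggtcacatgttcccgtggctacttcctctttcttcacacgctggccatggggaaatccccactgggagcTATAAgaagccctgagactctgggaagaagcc
Axin2: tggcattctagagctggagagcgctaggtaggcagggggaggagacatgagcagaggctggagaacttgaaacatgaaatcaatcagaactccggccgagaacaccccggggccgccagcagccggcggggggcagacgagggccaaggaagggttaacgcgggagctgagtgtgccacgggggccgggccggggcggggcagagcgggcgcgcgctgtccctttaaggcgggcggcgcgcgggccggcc
The Olfm4 stretch holds TATAA 32 bases before the start and 4 CG dinucleotides. The Axin2 stretch holds no TATAA and 24 CG dinucleotides. Over the whole 300 bases around the start (250 before and 50 after), G and C made up 52.3% in Olfm4 and 70.0% in Axin2, and between 44.3% and 70.0% in the 7 promoters, against a median of 52.7% over 32851 RefSeq promoters. The TCF/LEF letters CTTTGAA or CTTTGAT and the letters GTGGGAA of RBPJ, the DNA-binding partner of Notch, were searched on both strands. Neither occurred in any of the 7 promoters, while 8.65% of all promoters held the TCF/LEF letters and 6.38% the RBPJ letters. TATAA, searched because it was seen in Olfm4, occurred in 24.9% of all promoters and in 1 of the 6 genes. An absent match says only that these letters are not in this window.

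Totals ran from 482741 to 1447330 counts per library with a median of 958749. The libraries carried the labelled tissue's markers. Epcam, an epithelial adhesion molecule, lay between 365 and 583 CPM (counts scaled to a common library size by the TMM method) and Pdx1, a duodenal transcription factor, between 37.0 and 69.7 CPM. The ileal gene Fabp6 gave 17 counts over all libraries. Markers of other cell types were at or near 0: Col1a1, Col1a2, Col3a1, Ptprc and Cdh5 were at 0 in 28 to 35 of the 36 libraries. The endothelial gene Pecam1 gave 49 counts over all libraries, was at 0 in 12 of them and reached 4.78 CPM. The summed level of 12 fibroblast genes ran from 0 to 44.4 CPM. The counts behind the genes described here had medians per library between 30.5 for Nkd1 and 632 for Olfm4.

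At no DAPT period did any of the 10 genes differ from DMSO by more than the spread between replicates, as tested over all durations. Averaged over the 3 durations, 0 of 10 differed from DMSO at 90 min, 0 of 10 at 130 min and 0 of 10 at 170 min by edgeR's quasi-likelihood test with Benjamini-Hochberg adjustment over all genes, and the share of all tested genes that passed was 0% in each of these comparisons. With all DAPT libraries pooled against DMSO it was again 0 of 10, with 0% of all genes. In this fit none of the 10 had an unadjusted p under 0.05 in any of these 4 comparisons, where 7.92%, 5.49%, 8.64% and 6.67% of all genes did. DESeq2 called 0 of the 10 too, with 6 genes of all at 130 min and 0 in the other 3 comparisons. The median change of the 10 for pooled DAPT was -0.04 on the log2 scale, with 4 genes above and 6 below 0, beside a median of 0.00 over all tested genes. Beside these, 17 of 18 proliferation genes and 3 of 3 tested Notch targets lay below 0 and 11 of 12 goblet cell genes above 0 for pooled DAPT, with medians of -0.11, -0.08 and 0.12, and 0 of them passed (edgeR). An unadjusted p under 0.05 was reached by 6 of the 18, 1 of the 3 and 3 of the 12, where 6.67% of all genes reached it. The part of these lists in the levels of the 10 genes was not tested.

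The 4 genes used as stem cell markers were Lgr5, Ascl2, Olfm4 and Smoc2. Lgr5, the R-spondin receptor that defines cycling crypt base stem cells, had a lowest, median and highest level of 104, 154 and 266 CPM in the 9 DMSO libraries. At 90 min these were 122, 155 and 201 CPM, at 130 min 73.7, 183 and 209 CPM, and at 170 min 60.9, 162 and 208 CPM. All 4 ranges overlapped, and the widest excursions lay in single libraries of DMSO at 24 h and of 130 and 170 min at 72 h. Lgr5 differed from DMSO by -0.07 (SE 0.17) at 90 min, 0.00 (SE 0.18) at 130 min and -0.06 (SE 0.17) at 170 min on the log2 scale. Pooled DAPT differed by -0.04 (SE 0.14), with a 95% interval from 0.793-fold to 1.19-fold.

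Ascl2, a transcription factor that is required for stem cell identity, ranged over 169, 221 and 277 CPM (lowest, median and highest) in DMSO, 183, 204 and 252 CPM at 90 min, 141, 208 and 247 CPM at 130 min and 162, 214 and 246 CPM at 170 min. The groups overlapped almost completely. Pooled DAPT differed from DMSO by -0.07 (SE 0.07), and the interval from 0.862-fold to 1.06-fold was among the narrowest of the 10. Smoc2, a secreted matrix protein of crypt base cells, averaged 182 ± 26.7 CPM in DMSO, 168 ± 13.0 CPM at 90 min, 177 ± 26.7 CPM at 130 min and 174 ± 19.1 CPM at 170 min (SD, n = 9 each). Its pooled interval ran from 0.862-fold to 1.05-fold.

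Olfm4, a secreted glycoprotein of stem cells and their early daughters, spread most between replicates among the stem cell markers, with a biological coefficient of variation of 0.466 by edgeR, against 0.240 for Lgr5 and 0.128 for the median tested gene. Its lowest, median and highest levels were 374, 762 and 978 CPM in DMSO and 340, 639 and 802 CPM at 90 min. At 130 min they were 134, 687 and 983 CPM, and at 170 min 76.5, 804 and 908 CPM. The medians of the 3 periods lay on both sides of the DMSO median. Pooled DAPT differed by -0.08 (SE 0.26), and the interval from 0.650-fold to 1.37-fold leaves room for a decrease or an increase of about that size.

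Of the feedback inhibitors, Axin2, the scaffold of the complex that destroys beta-catenin and a general readout of Wnt activity, had lowest, median and highest levels of 97.3, 124 and 153 CPM in DMSO, 94.8, 117 and 141 CPM at 90 min, 90.1, 134 and 150 CPM at 130 min and 79.8, 125 and 149 CPM at 170 min. These ranges overlapped throughout. Its pooled difference was -0.04 (SE 0.09), with an interval from 0.860-fold to 1.1-fold. Rnf43 averaged 37.9 ± 11.9 CPM in DMSO, 42.7 ± 7.41 CPM at 90 min, 41.8 ± 14.4 CPM at 130 min and 44.6 ± 9.11 CPM at 170 min (SD, n = 9 each). Its 3 means under DAPT were all above that of DMSO, by less than 1 SD. The pooled difference of 0.16 (SE 0.14) had an unadjusted p of 0.281, the smallest of the 10 genes, by edgeR's test. Znrf3, its relative with the same target, averaged 94.3 ± 21.6 CPM in DMSO, 93.0 ± 12.8 CPM at 90 min, 99.2 ± 21.1 CPM at 130 min and 93.6 ± 12.7 CPM at 170 min (SD, n = 9 each). Its pooled difference was 0.03 (SE 0.10).

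Nkd1, which binds Dishevelled and dampens the Wnt signal, rested on the fewest counts, from 1 to 99 per library. Its lowest, median and highest levels were 12.8, 28.6 and 59.6 CPM in DMSO and 21.7, 36.9 and 60.5 CPM at 90 min. At 130 min they were 1.68, 19.4 and 105 CPM, the lowest from a single count, and at 170 min 11.4, 31.3 and 80.4 CPM. The highest library of 130 min and the highest of 170 min were both replicate 1 at 48 h. The pooled difference was 0.19 (SE 0.32), and the interval from 0.723-fold to 1.81-fold was the widest of the 10.

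Ephb2 and Sox9 are Wnt targets that extend above the stem cell zone. Ephb2, a receptor that positions cells along the crypt, averaged 86.0 ± 9.24 CPM in DMSO, 89.9 ± 8.88 CPM at 90 min, 82.5 ± 15.8 CPM at 130 min and 87.4 ± 7.90 CPM at 170 min (SD, n = 9 each). Sox9, a transcription factor of stem, transit and Paneth cells, had lowest, median and highest levels of 258, 315 and 437 CPM in DMSO, 262, 315 and 337 CPM at 90 min, 273, 318 and 385 CPM at 130 min and 254, 315 and 400 CPM at 170 min. The medians of the 4 treatments lay between 315 and 318 CPM. Pooled DAPT gave 0.01 (SE 0.08) for Ephb2 and -0.04 (SE 0.07) for Sox9, with intervals from 0.908-fold to 1.12-fold and from 0.882-fold to 1.08-fold.

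**Figure D1:**
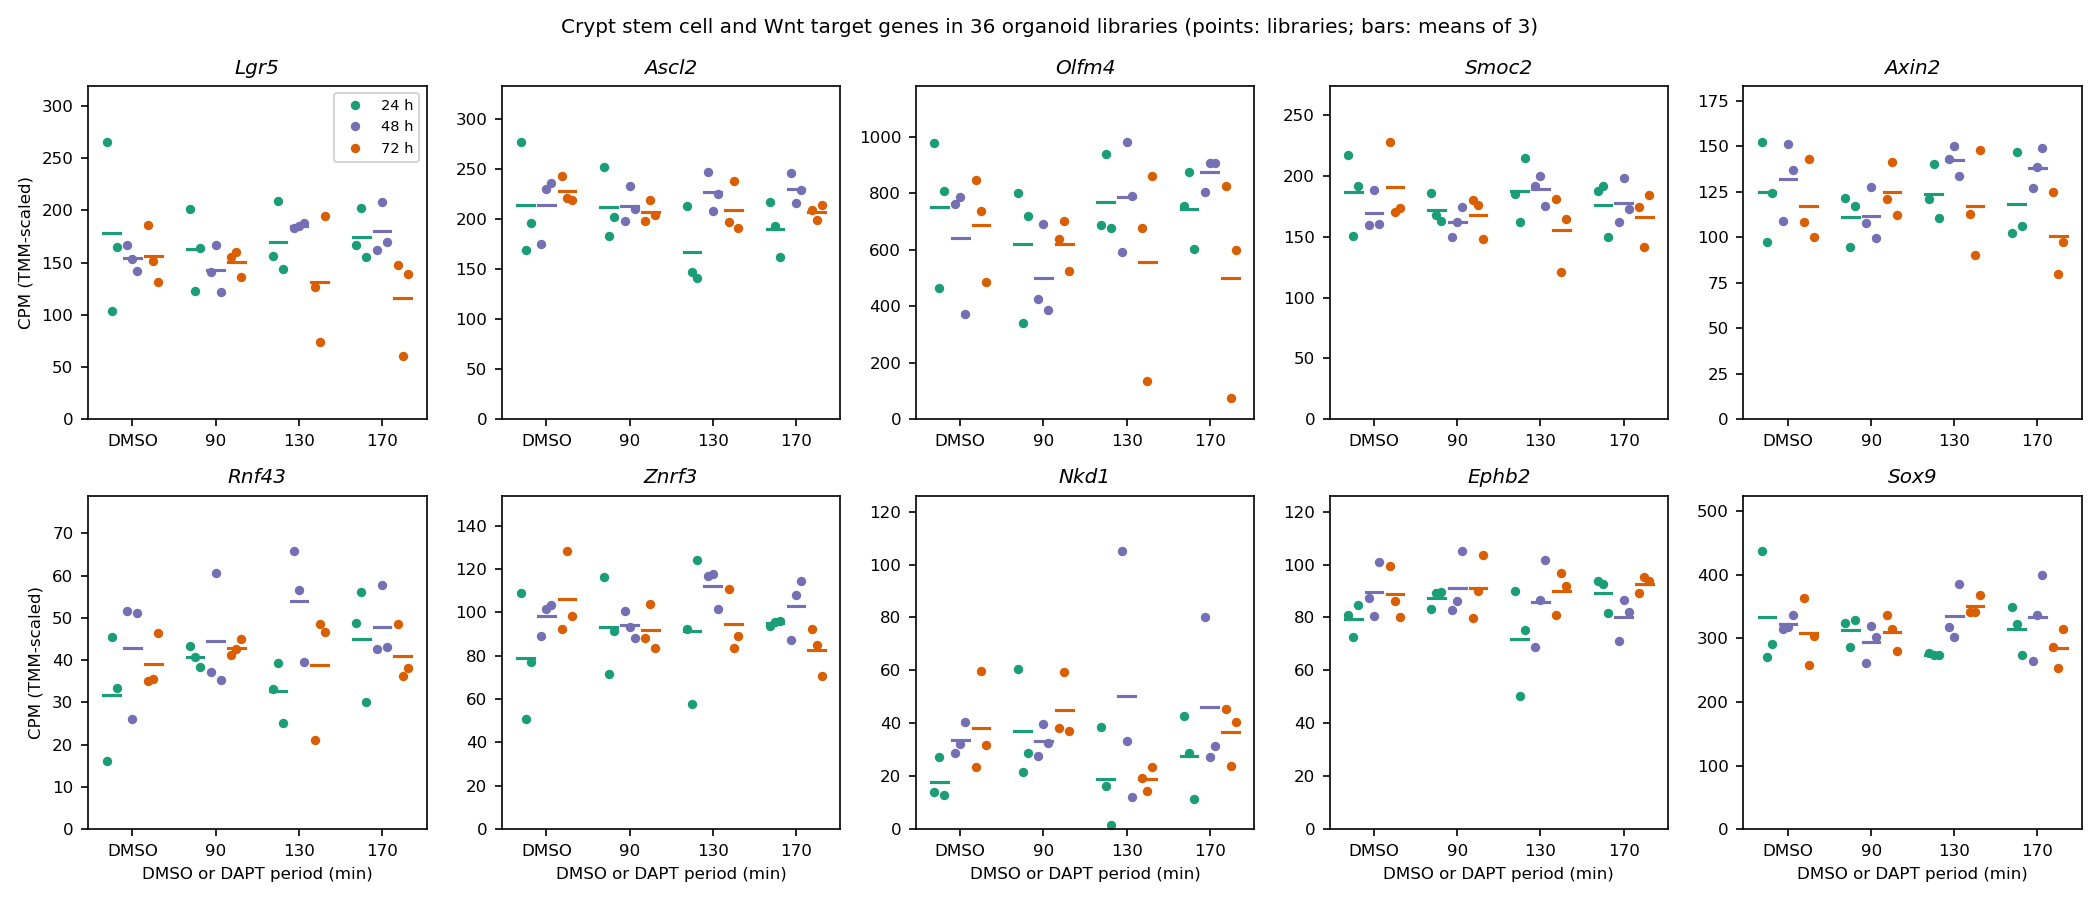
Level of each of the 10 genes in CPM (y axis, from 0) in DMSO and in DAPT pulses of period 90, 130 and 170 min (x axis), with 1 point per library, replicates 1 to 3 from left to right, and bars at the mean of 3. Olfm4 and Lgr5 each have a 72 h library at 130 and at 170 min far below the others, at 134 and 76.5 CPM and at 73.7 and 60.9 CPM.

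**Figure D2:**
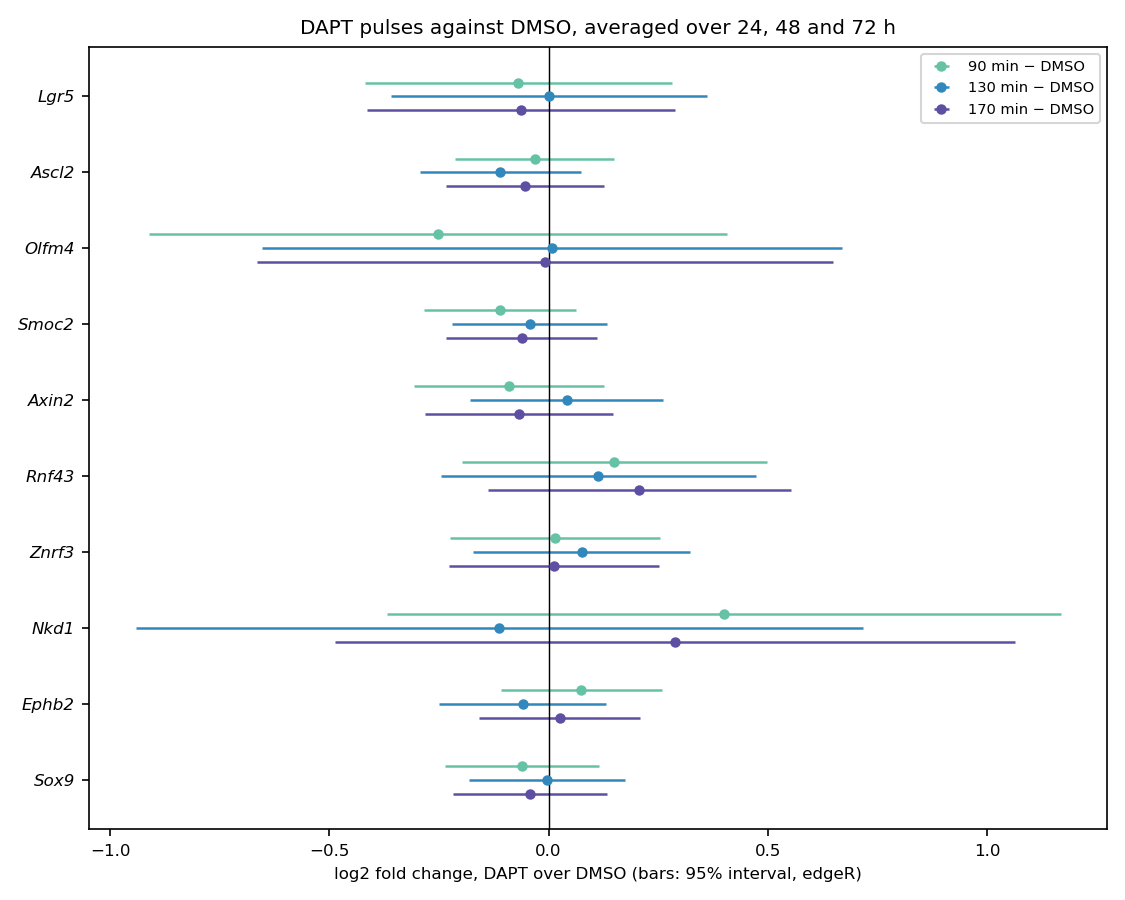
Log2 fold change of DAPT over DMSO (x axis) averaged over 24, 48 and 72 h for each gene (y axis) and period, with 95% intervals from edgeR. All 30 intervals include 0, and those of Nkd1 and Olfm4 are the widest.

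Between the periods, differences of the 10 genes also lay within the spread. Averaged over durations, 0 of 10 differed between 90 and 130 min, between 170 and 130 min or between 170 and 90 min (edgeR, adjusted over all genes), with 0% of all genes passing in each. In this fit none of the 10 had an unadjusted p under 0.05, where 11.8%, 12.0% and 1.30% of all genes did. Without the 2 libraries lowest in Olfm4, described further on, Olfm4 was -0.42 (SE 0.19) for 90 over 130 min and 0.42 (SE 0.19) for 170 over 90 min, with p-values by edgeR of 0.0384 and 0.0381 before adjustment and adjusted p-values of 0.285 and 1.00. The share of all genes with an unadjusted p under 0.05 without the 2 libraries was not determined. Over all 36 libraries Nkd1 showed the largest differences between periods, 0.51 (SE 0.38) for 90 over 130 min and 0.40 (SE 0.38) for 170 over 130 min. For Sox9 the difference of 170 over 90 min was 0.02, with an interval from 0.897-fold to 1.14-fold. DESeq2 called 0 of the 10 in all 3 comparisons, and 21, 4 and 0 of all genes. For 90 over 130 min and 170 over 130 min it gave Axin2, Rnf43, Znrf3, Nkd1 and Ephb2 no adjusted p. These genes could not be called there, nor could 32487 and 31824 genes of the table in all.

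At single durations, 0 of 10 genes passed in any of the 9 comparisons of a period with DMSO by edgeR, with 0% of the tested genes passing in each. DESeq2 called 0 of the 10 as well, and 1 gene of all for 130 min at 72 h and 0 in the other 8. It gave no adjusted p to Axin2, Rnf43, Znrf3, Nkd1 and Ephb2 for 170 min at 24 h, nor to Rnf43 and Nkd1 for 130 min at 72 h. In the fits to group means none of the 10 had an unadjusted p under 0.05 by either tool. With pairs of libraries as blocks, described further on, Nkd1 for 90 min at 24 h reached 0.0175 (change 0.91, SE 0.36, adjusted p = 0.349 by edgeR) and Olfm4 for 90 min at 48 h 0.0490 (change -0.33, SE 0.16, adjusted p = 1.00). With the library total as a covariate, Smoc2 for 130 min at 72 h reached 0.00176 (change -0.40, SE 0.12, adjusted p = 0.216 by edgeR). Among all genes the share with an unadjusted p under 0.05 in the edgeR fit to group means was 9.69%, 1.53% and 0.995% for 90 min at 24, 48 and 72 h, 4.70%, 2.47% and 10.3% for 130 min and 12.4%, 3.15% and 2.17% for 170 min. With blocks or with the covariate this share was not determined. The 3 libraries of a period and the 3 of DMSO did not overlap in 5 of 90 such comparisons of 1 gene, 2 with DAPT above and 3 below. Over all tested genes the share without overlap was 10.1%. It was 12.6%, 8.27% and 8.00% for 90 min at 24, 48 and 72 h, 6.50%, 7.81% and 14.9% for 130 min and 15.1%, 8.91% and 8.93% for 170 min. Lgr5 at 48 h had 183, 185 and 188 CPM at 130 min against 167, 154 and 142 CPM in DMSO, replicates 1 to 3. The 130 min libraries were all higher, and the fitted change was 0.26 (SE 0.29, adjusted p = 1.00 by edgeR). Olfm4 at 48 h had 804, 908 and 907 CPM at 170 min against 762, 785 and 374 CPM in DMSO. All 170 min libraries were higher, by little for a pair of the DMSO libraries, with a change of 0.45 (SE 0.55).

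At 72 h the groups that did not overlap lay below DMSO. Znrf3 had 92.2, 84.7 and 70.7 CPM at 170 min against 92.3, 128 and 98.3 CPM in DMSO, a change of -0.37 (SE 0.20). Ascl2 had 209, 199 and 214 CPM at 170 min against 243, 221 and 219 CPM in DMSO, a change of -0.13 (SE 0.15). Nkd1 had 19.4, 14.5 and 23.3 CPM at 130 min against 23.4, 59.6 and 31.7 CPM in DMSO, a change of -1.07 (SE 0.69). In each case the nearest libraries of the groups lay close together. The median change of the 10 genes was 0.18 at 130 min and 0.10 at 170 min at 48 h, and -0.16 and -0.16 at 72 h, against medians over all tested genes within 0.01 of 0. The 2 comparisons at each duration share their DMSO libraries. Whether the effect of treatment differed between durations was tested with 1 F test over 6 coefficients. The interaction passed for 0 of 10 genes and for 0% of all genes, and 2.37% of all genes had an unadjusted p under 0.05. The unadjusted p-values of the 10 lay between 0.242 for Sox9 and 0.838 for Olfm4 by edgeR, and DESeq2 called 0 of 10.

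Replicate numbers tied libraries together for some of these genes. Libraries of 90 min and DMSO with the same duration and number had deviations from their group means that correlated over 6445 genes with a mean of at least 50 CPM, with r from 0.135 to 0.540 and a median of 0.22. For those of 170 and 130 min r ran from 0.249 to 0.638 with a median of 0.443. Over the 18 such pairs, the deviations of Olfm4 correlated with r = 0.91 and rho = 0.89 (permutation p = 2e-05 and 3e-05, adjusted over the 10 genes 0.00015 and 0.00030). Lgr5 gave r = 0.82 and rho = 0.82 (adjusted permutation p = 0.00015 and 0.00040), Ascl2 r = 0.76 and rho = 0.63 (0.00080 and 0.0144), and Axin2 r = 0.61 and rho = 0.65 (0.0162 and 0.0144). Without the 2 pairs farthest from the median, r was 0.85 for Olfm4, 0.85 for Lgr5, 0.65 for Ascl2 and 0.70 for Axin2. Nkd1 paired with r = 0.70 and rho = 0.56 (adjusted permutation p = 0.00278 and 0.0320), by 0.89 between 130 and 170 min and by -0.03 between 90 min and DMSO (9 pairs each). For Znrf3 r was 0.54 over all pairs (adjusted permutation p = 0.0365) and rho 0.39 (adjusted permutation p = 0.141). Its r was 0.89 between 90 min and DMSO and 0.05 between 170 and 130 min (9 pairs each), and 0.15 without the 2 farthest pairs, so that its relation rests on those. Smoc2, Rnf43 and Ephb2 passed by neither measure, and Sox9 by rho alone (0.55, adjusted permutation p = 0.0320). Deviations sum to 0 within a group, which the permutations do not allow for, so these p-values are too small.

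Pair membership accounted for 70.4% of the variance of Olfm4 and 62.3% of that of Lgr5 on the log2(CPM + 1) scale. Treatment accounted for 1.49% and 0.727%. For the median tested gene the shares were 38.3% for pairs and 8.84% for treatment, and the shares of degrees of freedom are 34.3% and 8.57%. Rnf43 was the lowest of the 10 for pairs, with 27.1%.

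When pairs were kept as blocks, standard errors of the strongly paired genes shrank and no gene of the 10 passed. For Olfm4 at 90 min, the change of -0.25 from DMSO had an SE of 0.32 without blocks and of 0.09 with them. The adjusted p with blocks was 0.402 by edgeR's quasi-likelihood test, and 0.0131 before adjustment. The share of all genes with an unadjusted p under 0.05 in the fit with blocks was not determined. Within pairs, Olfm4 was lower at 90 min in 7 of 9. The values at 24 h were 802, 340 and 720 CPM at 90 min against 978, 463 and 807 CPM in DMSO, replicates 1 to 3. At 48 h they were 426, 690 and 388 CPM against 762, 785 and 374 CPM, and at 72 h 639, 701 and 526 CPM against 846, 736 and 484 CPM, with 90 min first in both. The exceptions were replicate 3 at 48 h and at 72 h. Nkd1 was higher at 170 than at 130 min in 7 of 9 pairs, as were Ascl2 and Ephb2. Axin2 too was lower at 90 min than in DMSO in 7 of 9 pairs, and Ephb2 was higher in 7 of 9. The share of all genes with such counts was not determined. The change of Nkd1 at 170 over 130 min with blocks was 0.50 (SE 0.19), with an adjusted p of 0.228 by edgeR's quasi-likelihood test. Lgr5 at 90 min was -0.08 (SE 0.07) relative to DMSO with blocks.

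**Figure D3:**
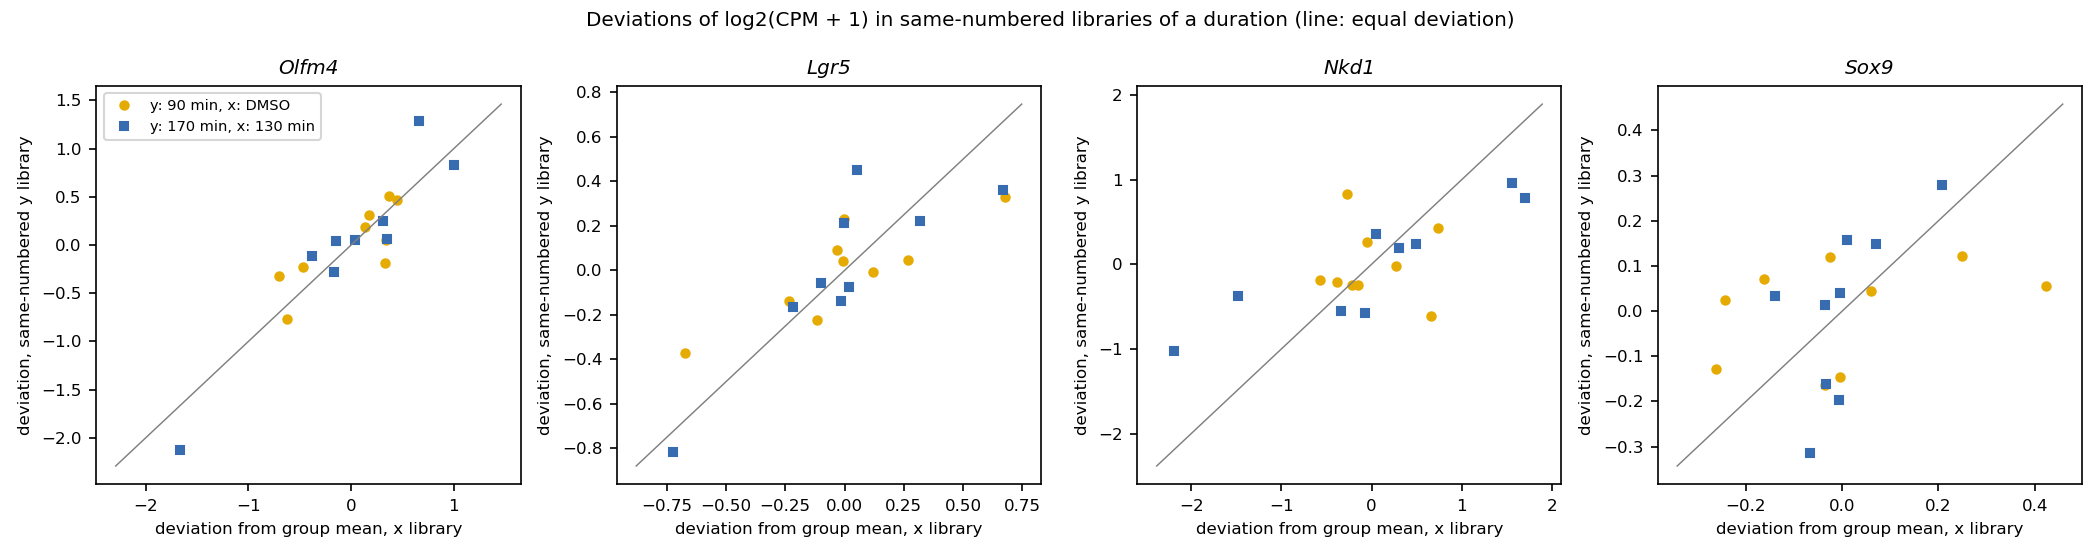
Deviation of log2(CPM + 1) from the group mean in libraries of 90 or 170 min (y axis) against the library of DMSO or 130 min with the same duration and replicate number (x axis), 1 point per pair and 9 pairs of each kind. Olfm4 and Lgr5 lie near the line of equal deviation (r = 0.91 and 0.82), and Sox9 scatters (r = 0.39). Nkd1 correlates between 170 and 130 min (r = 0.89), but its widest deviations are smaller at 170 min. In replicate 3 at 24 h they are -1.03 at 170 min and -2.19 at 130 min.

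None of the 10 genes passed between durations either. Averaged over treatments, 0 of 10 passed for 48 against 24 h (0% of all genes), 0 of 10 for 72 against 24 h (0.157% of all genes) and 0 of 10 for 72 against 48 h (0% of all genes) by edgeR's test adjusted over all genes. DESeq2 called 0 of the 10 in each, and 0, 99 and 6 of all genes. For 72 against 48 h it gave Axin2, Rnf43, Znrf3, Nkd1 and Ephb2 no adjusted p, so these could not be called there. Unadjusted p-values under 0.05 were reached by 3, 1 and 1 of the 10, where 9.63%, 14.8% and 12.6% of all genes reached them. At 48 h Ascl2 was 0.18 (SE 0.08) above 24 h, Rnf43 0.33 (SE 0.15) and Nkd1 0.71 (SE 0.33), with adjusted p-values of 0.466, 0.487 and 0.504.

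Lgr5 was lower at 72 h. Its lowest, median and highest levels over 12 libraries each were 104, 165 and 266 CPM at 24 h, 122, 167 and 208 CPM at 48 h and 60.9, 143 and 195 CPM at 72 h. The ranges overlapped, and the change of 72 over 24 h was -0.33 (SE 0.15), with an unadjusted p of 0.0378 and an adjusted p of 0.306 by edgeR. Without the 2 low 72 h libraries described next it was -0.16 (SE 0.12, adjusted p = 0.689). Axin2 at 72 h was -0.19 (SE 0.09) relative to 48 h, and -0.11 (SE 0.09) without those libraries. Sox9 gave 0.02 (SE 0.08) for 72 over 24 h, with an interval from 0.914-fold to 1.13-fold.

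Marker lists of other organoid cells were compared between the same durations. For 48 against 24 h, 17 of 17 tested enterocyte genes were lower, with a median of -0.35, and 7 had an unadjusted p under 0.05. Of 12 goblet cell genes 11 were higher, with a median of 0.27, and 6 had an unadjusted p under 0.05. None of these genes passed (edgeR). All 17 tested enterocyte genes of a list of 18 were lower at 72 than at 24 h, with a median of -0.46, and Apoa4, an apolipoprotein of enterocytes, passed with -1.82 (SE 0.38, adjusted p = 0.0480 by edgeR). No other gene of the lists passed in a comparison averaged over durations or treatments, and without the 2 low 72 h libraries no gene of the table passed for 72 against 24 h. Of 12 goblet cell genes 11 were higher at 72 than at 24 h, with a median of 0.22, and 0 passed. The part of these lists in the levels of the 10 genes was not tested.

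Within single treatments, 72 against 24 h again passed for 0 of 10 genes at each period and in DMSO by edgeR and by DESeq2, where 0% of all genes passed in DMSO, at 90 min and at 170 min and 0.209% at 130 min (0 genes without the 2 low libraries). Unadjusted p-values under 0.05 were found for Znrf3 in DMSO, for Ephb2 and Sox9 at 130 min and for Lgr5 at 170 min. They were found for 5.81% of all genes in DMSO, 1.31% at 90 min, 14.2% at 130 min and 7.51% at 170 min. Znrf3 in DMSO had 92.3, 128 and 98.3 CPM at 72 h against 109, 50.6 and 76.9 CPM at 24 h, a change of 0.51 (SE 0.22, adjusted p = 0.843 by edgeR). Sox9 at 130 min had 341, 342 and 368 CPM at 72 h against 276, 274 and 273 CPM at 24 h. The change of 0.35 (SE 0.15) had an adjusted p of 0.278 by edgeR. Ephb2 at 130 min had 80.9, 96.9 and 91.9 CPM against 90.0, 50.5 and 75.5 CPM, a change of 0.34 (SE 0.16). Lgr5 at 170 min had 148, 60.9 and 139 CPM at 72 h against 167, 202 and 155 CPM at 24 h, a change of -0.62 (SE 0.29) that was -0.29 (SE 0.24) without its replicate 2 and that of 130 min.

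**Figure D4:**
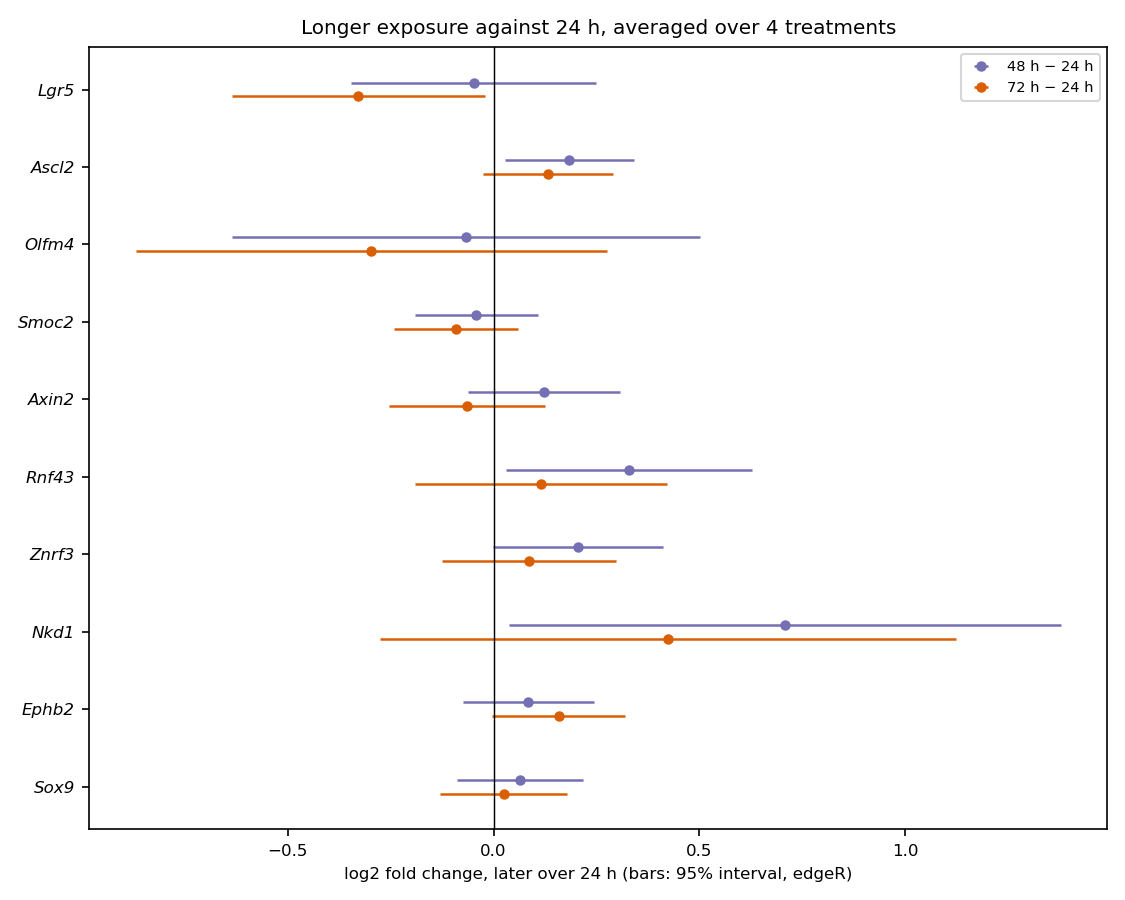
Log2 fold change of 48 h and of 72 h over 24 h (x axis), averaged over the 4 treatments, for each gene (y axis), with 95% intervals from edgeR. Lgr5 at 72 h lies at -0.33, and Ascl2, Rnf43 and Nkd1 at 48 h lie at 0.18, 0.33 and 0.71, with intervals that just clear 0 before adjustment over all genes.

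A pair of 72 h libraries stood apart in part of the 10 genes. Replicate 2 of 170 min and replicate 2 of 130 min had 76.5 and 134 CPM of Olfm4, where the other 10 libraries of 72 h ran from 484 to 860 CPM with a median of 689 CPM. Their levels were 9.01-fold and 5.15-fold below that median. Lgr5 had 60.9 and 73.7 CPM in them, against 127 to 195 CPM in the other 10. Axin2, with 79.8 and 90.1 CPM against 97.3 to 148 CPM, and Smoc2, with 142 and 121 CPM against 148 to 228 CPM, were also below every other 72 h library. Ascl2 was not, with 199 and 238 CPM against 191 to 243 CPM, nor were Ephb2, with 95.4 and 96.9 CPM against 79.7 to 104 CPM, and Znrf3, with 84.7 and 83.4 CPM against 70.7 to 128 CPM. Rnf43 was below the others in neither, and Nkd1 and Sox9 each in 1 of the 2. Thus 4 of the 10 genes were below the other 10 libraries in both. Of all tested genes, 6.01% were. These libraries were singled out by their values, so the counts are a description.

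These libraries were not shallow, with totals of 1201118 and 1023096 counts, and their mitochondrial shares of 0.937% and 0.962% lay within the 0.867% to 1.48% of all libraries. Other lists differed in them. The 18 enterocyte genes summed to 2721 CPM in the 170 min library and 1759 CPM in the 130 min library against 3688 to 5132 CPM in the other 10. Of 17 tested enterocyte genes 14 were below all the others in both. The 20 Paneth cell genes in the table summed to 2284 and 2721 CPM against 2290 to 5930 CPM, and 21 further crypt stem cell genes to 2517 and 2883 CPM against 3005 to 4029 CPM. Sums of the proliferation, goblet cell and Notch target lists lay within the range of the others. The fibroblast, immune and endothelial lists summed to at most 44.4, 22.3 and 13.5 CPM in any library. The part of these lists in the low Lgr5 and Olfm4 was not tested. Without the 2 libraries the pooled change of DAPT against DMSO was 0.04 (SE 0.11) for Lgr5 and 0.03 (SE 0.15) for Olfm4, and 0 of the 10 genes passed in any comparison by edgeR.

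The 10 genes did not vary as 1 unit between libraries. Deviations of log2(CPM + 1) from the 12 group means were correlated over the 36 libraries for all 45 pairs of genes, and 13 pairs passed by r and 9 by rho (permutation test with 100000 permutations, two-sided, adjusted over the 45). Of the 13, 12 were positive. Deviations sum to 0 within a group, which the permutations do not allow for, so the p-values of these correlations are too small. Lgr5, Olfm4, Axin2 and Smoc2 formed the core over all 36 libraries. Lgr5 and Olfm4 correlated with r = 0.88 and rho = 0.90 (permutation p = 1e-05 each, the smallest these permutations can give, adjusted 0.00015 each), and r was 0.82 without the 2 libraries farthest from the median of Lgr5, which are the 2 low ones of 72 h. Lgr5 and Axin2 gave r = 0.77 and rho = 0.72 (adjusted permutation p = 0.00015 each) and r = 0.72 without the same 2. Lgr5 and Smoc2 gave r = 0.63 and rho = 0.57 (adjusted permutation p = 0.000675 and 0.00324), and r = 0.51 without them. Leaving out replicate 2 of every group leaves 24 libraries, 2 per group, whose deviations are equal with opposite sign. The permutations count both, so their p-values are far too small, and the 4 pairs that passed are a description. Here r was 0.69 for Lgr5 and Olfm4, 0.59 for Lgr5 and Axin2 and 0.34 for Lgr5 and Smoc2, the last of which did not pass even so. The core pairs without Lgr5 did not pass either. Their r was 0.35 for Olfm4 and Smoc2, 0.14 for Olfm4 and Axin2 and 0.03 for Smoc2 and Axin2. Sox9 followed Lgr5 with r = 0.54 and rho = 0.53 (adjusted permutation p = 0.00566 and 0.00758).

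Over all 36 libraries Ascl2 did not pass with the genes of that core, and its relations with them differed between 2 sets of libraries, described below. Its r with Lgr5 was 0.25 and with Olfm4 0.05, and rho was 0.16 and 0.10 (adjusted permutation p from 0.242 to 0.765). Without the 2 low 72 h libraries, with group means taken again, r of Ascl2 with Lgr5 was 0.46 and passed. It correlated instead with Sox9, at r = 0.48 and rho = 0.44 (adjusted permutation p = 0.0155 and 0.0350), and by r alone with Nkd1, at 0.45 (adjusted permutation p = 0.0261). Ephb2 passed with none of the other 9 genes, and its r with Lgr5 was -0.12.

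Because libraries come in pairs that deviate together, 36 libraries are not 36 independent points, and the correlations were taken again over the 18 pair means. The pair means are not free either, since they sum to 0 over the 3 of a duration and kind of pair. The permutations do not allow for this, so the p-values are too small, which matters most for pairs of genes near the threshold. Over the 18 pair means 7 of 45 pairs of genes passed, and 7 of 7 were among the 13. Of these, 6 lay within the core of Lgr5, Olfm4, Axin2 and Smoc2, from r = 0.64 for Smoc2 and Axin2 to r = 0.92 for Lgr5 and Olfm4 (adjusted permutation p = 0.0287 and 0.000225). In each of the 2 sets of 9 pair means, 90 min with DMSO and 130 with 170 min, Lgr5 and Olfm4 gave r = 0.89 and 0.96. The other pair that passed was Rnf43 with Znrf3, the ubiquitin ligases that act on the same receptors, and it was negative: r = -0.80 and rho = -0.66 (permutation p = 9e-05, adjusted 0.000675). Its r was -0.69 without the 2 pair means farthest from the median of Rnf43, and -0.88 and -0.80 within the 2 sets. Over the 36 libraries it was -0.45 by r (adjusted permutation p = 0.0247) and -0.31 by rho (adjusted permutation p = 0.158), and it rested in part on replicate 1 of DMSO at 24 h and of 130 min at 72 h, without which r was -0.30. Those 2 libraries had the lowest totals of the 36, 482741 and 610977 counts, and held 7 and 12 counts of Rnf43. The part of depth in this relation was not tested. Over the 18 differences within pairs, no correlation passed. Lgr5 and Olfm4 then gave r = 0.36 and Rnf43 and Znrf3 r = -0.07. Ascl2 behaved unlike in the 2 sets of 9 pair means. With Lgr5, Olfm4, Smoc2 and Axin2 its r was 0.78, 0.58, 0.77 and 0.77 in 90 min with DMSO. In 130 with 170 min it was -0.23, -0.24, -0.20 and -0.28. This difference between the sets was not tested.

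**Figure D5:**
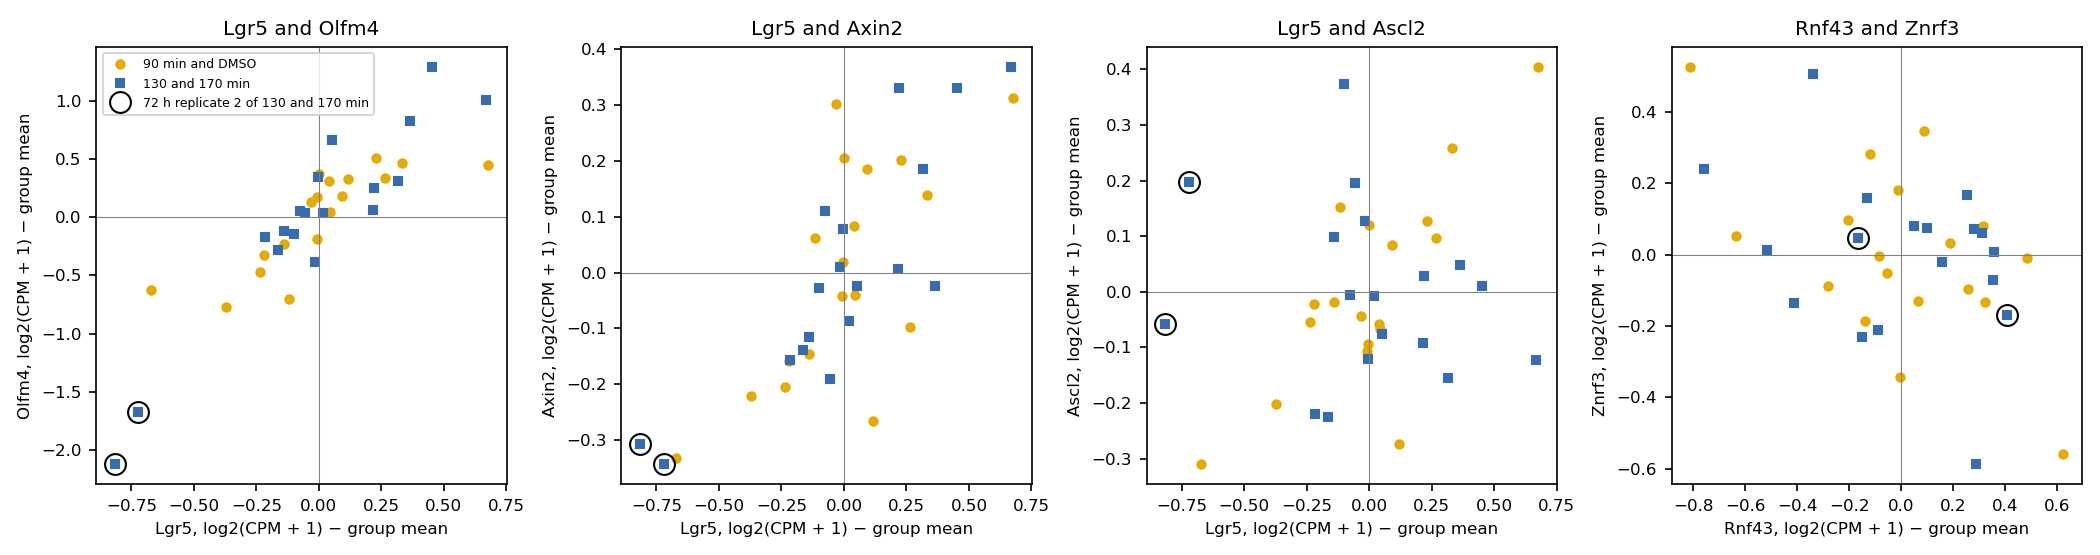
Deviations of log2(CPM + 1) from the group mean for pairs of genes, 1 point per library, for 90 min and DMSO (circles) and for 130 and 170 min (squares), with replicate 2 of 130 and 170 min at 72 h ringed. Lgr5 rises with Olfm4 and Axin2 (r = 0.88 and 0.77), scatters against Ascl2 (r = 0.25), and Rnf43 and Znrf3 slope the other way (r = -0.45).

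Among 9031 other genes with a mean of at least 20 CPM, those whose deviations were most like those of Lgr5 over the 36 libraries were Rgmb, a co-receptor for bone morphogenetic proteins (r = 0.93), Olfm4 (r = 0.88), Ivns1abp (r = 0.88), the ribonuclease Rnase1 (r = 0.88) and Cdca7 (r = 0.87). Rgmb and Cdca7 are on the list of further crypt stem cell genes, and the other 3 are on none of the lists used for other genes. Those most like Olfm4 were Cps1, an enzyme of ammonia detoxification (r = 0.93), Rgcc (r = 0.90), the death ligand Tnfsf10 (r = 0.88), Lgr5 (r = 0.88) and Gm2830 (r = 0.88). Those most like Axin2 were Lgr5 (r = 0.77), Tbc1d9 (r = 0.75), the cholesterol esterifying enzyme Soat1 (r = 0.75), Bcl7a (r = 0.74) and Rgmb (r = 0.74). Ascl2 ranked 2104 among the genes most like Lgr5 and Ephb2 ranked 5978, while Axin2 ranked 23 and Smoc2 138. Without the 2 low 72 h libraries the r of Lgr5 with Rgmb was 0.91 and that of Olfm4 with Cps1 was 0.88. The median r of all candidates with Lgr5 was 0.02, and the points share library and pair.

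Summed marker lists were correlated with the deviations of 5 of the genes, giving 45 relations with 9 lists. The Paneth cell list includes Sox9, which is also 1 of the 5 genes. The relation of Sox9 with that list (r = 0.42, adjusted permutation p = 0.026, n = 36) is thus partly of the gene with itself. The permutation p-values are too small here too, since deviations and pair means sum to 0 within their groups. Lgr5 correlated with the Paneth cell list at r = 0.69 and rho = 0.73 (adjusted permutation p = 0.00015 and 0.000225, n = 36), and r was 0.68 without the 2 low libraries. It correlated with the further crypt stem cell genes at r = 0.79 and rho = 0.72 (adjusted permutation p = 0.00015 and 0.000225), and at 0.71 without them. Its r with the proliferation list was 0.26 (adjusted permutation p = 0.248). For Ascl2, r was 0.60 and rho 0.47 with proliferation (adjusted permutation p = 0.00060 and 0.0131) and r was 0.02 with the Paneth cell list. Sox9 gave r = 0.62 and rho = 0.54 with proliferation (adjusted permutation p = 0.000771 and 0.00517). With the summed Notch targets, r was 0.45 for Ascl2 and 0.49 for Sox9 (adjusted permutation p = 0.0173 and 0.00669), and 0.16 for Olfm4 (adjusted permutation p = 0.482). Olfm4 correlated with the enterocyte list at r = 0.56 and rho = 0.40 (adjusted permutation p = 0.00266 and 0.0432), and at 0.37 without the 2 low libraries. The fibroblast list, at 0 to 44.4 CPM, also followed Lgr5, Olfm4 and Axin2 with r from 0.52 to 0.56 (adjusted permutation p from 0.00118 to 0.0035), and Ascl2 with r = -0.43 (adjusted permutation p = 0.0235). Over the 18 pair means, 10 of the 45 relations passed by r, where 18 did over the 36 libraries, and 10 of the 10 were among the 18. Lgr5 then gave r = 0.71 and rho = 0.73 with the Paneth cell list (adjusted permutation p = 0.0137 and 0.0138) and r = 0.83 and rho = 0.80 with the further crypt stem cell genes (0.000675 and 0.0063). With proliferation r was 0.65 for Ascl2 and 0.62 for Sox9 (adjusted permutation p = 0.0227 and 0.0345). The Notch target relations passed no more by r (adjusted permutation p = 0.0926 for Ascl2 and 0.0577 for Sox9). For Olfm4 with the enterocyte list r was 0.67 and rho 0.29 (adjusted permutation p = 0.0227 and 0.468), and r was 0.38 without the 2 farthest pair means. Of the fibroblast relations only that of Olfm4 passed by r (0.59, adjusted permutation p = 0.0345). A single gene of the fibroblast list was abundant enough to be tested for expression, and its collagen genes were at 0 in 30 of 36 libraries each.

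Of 118 other genes of Wnt signalling and crypt stem cells, 76 were tested, and 0 passed in any comparison of treatment or duration by edgeR adjusted over all genes. For pooled DAPT against DMSO, 2 of 76 (2.63%) had an unadjusted p under 0.05, against 6.67% of all genes. For 72 against 24 h it was 11 of 76 (14.5%) against 14.8%, and for 72 against 48 h 14 of 76 (18.4%) against 12.6%. By role, where some genes stand on more than 1 list, 5 of 21 Wnt ligand and secretion genes were tested, 11 of 17 receptor genes, 16 of 17 genes of the destruction complex and signal transduction, 9 of 13 of the TCF complex, 3 of 15 inhibitors, 12 of 16 further Wnt targets, 19 of 21 further crypt stem cell genes and 7 of 7 reserve stem cell genes. Median changes for pooled DAPT were -0.06 for the further crypt stem cell genes, of which 15 were below and 4 above 0, and 0.02 for the further Wnt targets, of which 6 were above and 6 below. The smallest p of a pathway gene in the averaged comparisons, singled out after the values were seen, was that of Wnt3, a ligand made by Paneth cells, at -0.59 (SE 0.14) for 72 over 48 h with an adjusted p of 0.164 by edgeR.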

How the data were processed

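The deposited table holds whole-number UMI counts per gene for 36 libraries, with a sum per library that is its depth. Reads came from a Sort-seq protocol, per the labels. STAR 2.7.8a and UMI-tools 1.1.1 are named in the submitters' processing notes. For the genome build, the annotation and the rule for counting, what applied is not given in the sources used here. UMIs remove PCR copies, and how multi-mapping reads were counted is unknown.

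Columns were assigned to samples by their names. edgeR 4.0.16 (R 4.3.3, filterByExpr, TMM, robust quasi-likelihood F test, two-sided) was fitted once to 12 group means over all 36 libraries, leaving 24 residual degrees of freedom, and p-values were adjusted over 11462 genes with a threshold of 0.05. CPM values use TMM. Intervals are 95% intervals of the fit. Correlations used log2(CPM + 1) deviations from group means with 100000 permutations. The permutations treat the deviations as free, although they sum to 0 within each group, so the permutation p-values are too small. The methods were tested on simulated data, which for the correlations had no groups. DESeq2 1.42.0 and other settings were alternatives.

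Replicate numbers were checked over 6445 genes with a mean of at least 50 CPM. Same-numbered libraries of 90 min and DMSO correlated over 0.1 in 9 of 9 pairs (0.135 to 0.540), as did those of 170 and 130 min in 9 of 9 (0.249 to 0.638), and 0 to 4 of 9 did between other treatments. The pairing comes from the data, since the labels do not say what a number stands for. Between the other treatments, set and treatment cannot be told apart.

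All 10 genes were named. For Lgr5, Olfm4 and Axin2 the 5 most alike genes with a mean of at least 20 CPM were named, and of the lists, those that passed. Wnt3 and the tissue and cell markers given as checks fall outside this rule, and Wnt3 was chosen after its values were seen. The genes and lists were chosen with earlier results of these data known. A protein comparison of Rnf43 and Znrf3 was not made.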

Additional observations from a re-analysis of the deposited data

Results flagged for a closer look

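In 7 of 90 comparisons of 1 gene at 1 period, the 3 libraries of a period lay all on one side of the DMSO mean at a duration and all on the other side at another duration. Over all tested genes, 5.99% of such comparisons did the same. None of these 7 differences was tested by itself. The F test of all treatment by duration terms gave unadjusted p-values of 0.242 to 0.838 for the 10 genes and an adjusted p of 1 (edgeR). Differences are on the log2(CPM + 1) scale, the later duration minus the earlier.

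At 170 min, Lgr5 lay -0.5146 from DMSO at 72 h and 0.2177 at 48 h, a difference of -0.7323. The 72 h value includes the low replicate 2. At the same period and durations, Ascl2 lay -0.1325 and 0.1177 from DMSO, a difference of -0.2503. Ephb2 lay 0.06877 and -0.1619 from it, a difference of 0.2307. For 48 against 24 h Ephb2 lay -0.1619 and 0.17 from DMSO, a difference of -0.3319, and for 72 against 24 h Znrf3 lay -0.3544 and 0.3371 from it, a difference of -0.6916.

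At 130 min, Smoc2 lay -0.2995 from DMSO at 72 h and 0.1597 at 48 h, a difference of -0.4593. Its 72 h value includes the low replicate 2 of that group. Sox9 lay 0.1957 from DMSO at 72 h and -0.2449 at 24 h, a difference of 0.4406. The comparisons of a gene at 1 duration share their DMSO libraries.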

How the results depend on the processing

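In all 327 alternatives of the tests, edgeR or DESeq2 called 0 of the 10 genes, leave-one-out fits included (0 to 0). In some comparisons DESeq2 gave no adjusted p to Axin2, Rnf43, Znrf3, Nkd1 and Ephb2. With the replicate block of 3 levels, nested in duration or of pairs, 0 of the 10 passed, and the block changed no call among them. The count of 13 correlated gene pairs was 4 to 15 without a replicate number (4 without replicate 2), 7 over means of paired libraries and 0 over differences within pairs. Without a replicate number the 2 libraries left in a group mirror each other, so those counts rest on p-values that are far too small. Counts over all genes were less stable. The 18 genes for 72 against 24 h became 304 with no filter on low counts, 99 by DESeq2, 9 without replicate 2, 0 without the 2 low 72 h libraries, and 0 to 152 when 1 library was left out. The 24 genes for the same durations at 130 min became 266 with no filter, 136 by DESeq2, 87 with library total as a covariate, 14 with the replicate block of 3 levels, 0, 0 and 60 without replicates 1, 2 and 3, 0 without the 2 low libraries, and 0 to 127 when 1 library was left out. DESeq2 called 6 genes for 130 min and 0 for 90 and 170 min against DMSO, and 21 for 90 over 130 min. The cause was not tested. The alternatives without the 2 low libraries and those using pairs were chosen after seeing the data. Depth limits Nkd1 most, with 1 to 99 counts per library, and Rnf43 next, with 7 to 72.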
